A study of Rattus norvegicus with 8 samples.

Results

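Nitric oxide synthesis and the genes that supply, limit and read it were followed in endothelial cells of rat lung. The members were chosen by name as 10 genes: the synthases Nos3 and Nos2, the methylarginine hydrolases Ddah1 and Ddah2, the cofactor enzyme Gch1, the arginases Arg1 and Arg2, the arginine carrier Slc7a1, the arginine-making enzyme Ass1 and the cyclic GMP phosphodiesterase Pde5a. Probes were assigned to them through their transcript accessions. Of the 10 genes 9 had a matched probe, Slc7a1 had none, and the 9 genes held 10 of the 30350 probes on the array with usable spots, of which 18004 matched 15159 genes. Every one of the 10 member probes passed the filter on dim probes, as did 21652 probes in all.

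The animals were Sprague-Dawley rats 8 to 10 weeks old. The 4 samples of the monocrotaline group came from rats given 60 mg/kg of monocrotaline under the skin, and the 4 of the saline group from rats given saline by the same route. Lungs were taken 5 days later in both groups, and whether a sample is 1 rat or a pool is not given in the sources used here. Monocrotaline is a plant alkaloid whose liver metabolite injures lung vessels and is used to bring on pulmonary hypertension. The comparison concerns this gene system in cells captured from the lung 5 days after dosing, and no measure of disease was used here. All samples shared the same preparation: collagenase digestion of whole lung, capture on beads carrying an antibody to CD31, and RNA taken off the beads with no culture step. CD31 is also present on platelets and on some leukocytes, which limits how far the samples stand for endothelium alone.

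Endothelial nitric oxide synthase, the product of Nos3, makes nitric oxide from arginine with tetrahydrobiopterin as a cofactor, and nitric oxide relaxes vessels by switching on soluble guanylate cyclase in smooth muscle. Asymmetric dimethylarginine competes with arginine at the synthase and is broken down by the Ddah enzymes, arginases draw on the same arginine, and Pde5a removes the cyclic GMP that carries the signal. The pathway is a drug target in pulmonary hypertension, where inhibitors of the Pde5a enzyme and stimulators of soluble guanylate cyclase are given.

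Each sample was read on a 1-colour Agilent array with 58717 non-control spots, of which 70.8% to 77.7% were flagged by the scanner software as well above background, and 4 arrays per group limit the precision of every value. Values are scaled log2 signals: the log2 of the background-subtracted spot brightness, shifted so that the 75th percentile of each array is 0. They compare arrays for 1 probe and say nothing of one gene against another. All 13 endothelial markers measured (Pecam1 and Cdh5 among them) were well above background on all 8 arrays. Over the 21652 probes tested, 294 (1.36%) were higher and 14 (0.0647%) lower after monocrotaline at a limma adjusted p under 0.05, the p being adjusted by Benjamini and Hochberg over all of them. The higher and lower counts became 14 and 0, 118 and 2, 117 and 3, and 113 and 3 without saline replicates 1 to 4 in turn. They became 94 and 3, 316 and 108, 277 and 8, and 74 and 1 without monocrotaline replicates 1 to 4 in turn. The saline arrays lay in 1 row of the slide and the monocrotaline arrays in the other, so slide row and treatment cannot be told apart.

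None of the 10 member probes passed the test, 0 higher and 0 lower. By limma 0 had an unadjusted p under 0.05, against 6.72% of all probes higher and 7.09% lower at that level. Adjusted p ran from 0.366 for Arg2 to 0.984 for Pde5a. The log2 fold change (monocrotaline minus saline) was above 0 for 5 probes and below 0 for 5, with a median of 0.0057 beside -0.02 over all probes tested. Arg2 alone had a log2 fold change of 1 or more either way, as did 5.34% of all probes. In none of the 10 did the 2 groups of arrays lie apart, a separation found in 4.67% of all probes upward and 3.89% downward. For 7 of the 10 the 95% interval of the log2 fold change lay inside a 2-fold change either way, and the exceptions were Arg1, Arg2 and Pde5a. In bulk RNA, fewer cells of a type and less RNA per cell cannot be told apart, which holds for every value given here.

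**Figure D1:**
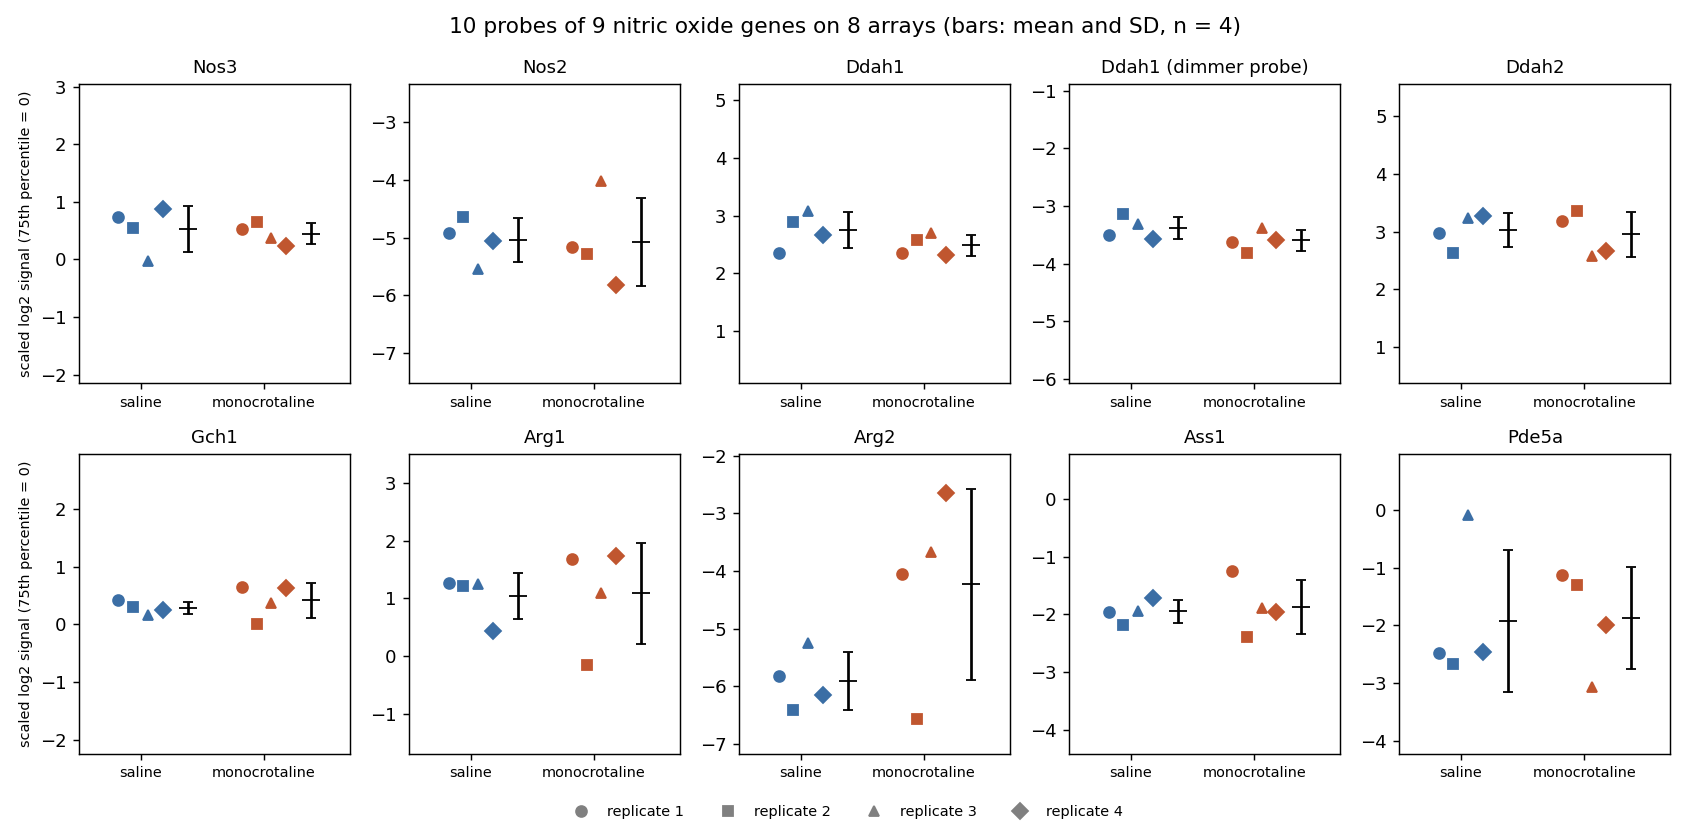
Scaled log2 signal (75th percentile of each array at 0) of the 10 member probes on the 4 saline and 4 monocrotaline arrays, 1 symbol per array with its shape giving the replicate number, and bars for the mean and SD (n = 4). The vertical axes cover the same span at different levels. The groups overlap in every panel, and the arrays of a group lie widest apart for Arg2 and Pde5a.

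Nos3, the main synthase of endothelium, did not pass the test and had close group means, 0.53 after saline and 0.45 after monocrotaline. Its scaled log2 signals were 0.73, 0.54, -0.03 and 0.88 on saline replicates 1 to 4, and 0.52, 0.65, 0.38 and 0.24 on monocrotaline replicates 1 to 4. All 4 monocrotaline values fell within the range of the saline values, whose lowest was on replicate 3. The log2 fold change was -0.08 ± 0.21 (SE, n = 4 per group, limma adjusted p = 0.893), with a 95% interval from -0.56 to 0.39. The interval thus holds a loss of up to 1.47-fold and a gain of up to 1.31-fold. Without saline replicate 3 the log2 fold change was -0.27 (limma adjusted p = 0.554), and without saline replicates 1 and 4 in turn it was -0.017 and 0.033. The probe was printed as 10 spots, and the SD of log2 signal between spots on 1 array had a median of 0.06, smaller than the SD between saline arrays of 0.40 and between monocrotaline arrays of 0.18. The 13 endothelial markers all had log2 fold changes below 0, from -0.91 (Tek, the angiopoietin receptor) to -0.07 (Flt1, a VEGF receptor), with a median of -0.50 and 0 calls. Of the 13, 6 were lower at an unadjusted limma p under 0.05, beside 7.09% of all probes. Their mean over the saline mean was -0.25 to 0.38 on the saline arrays and -0.83 to -0.08 on the monocrotaline arrays. Markers of other cells had medians above 0 on the same arrays, at 1.77 for 9 T cell markers (2 called higher). The median was 1.98 for 8 airway secretory and ciliated cell markers and 1.11 for 6 fibroblast markers (0 called in either list). Of the airway markers 6 lay above 0 and 2 below, the lowest at -0.54. All 5 markers of cycling cells were called higher, with a median of 2.02, where 1.36% of all probes were. Correlations of Nos3 with the endothelial, fibroblast and airway markers over the arrays are given below. Beyond them the part of these cells in the Nos3 and endothelial values was not tested.

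Nos2, the inducible synthase that activated macrophages and other cells make in inflammation, was dim on every array. Its scaled log2 signals were -4.91, -4.64, -5.54 and -5.06 on saline replicates 1 to 4 and -5.17, -5.29, -4.03 and -5.83 on monocrotaline replicates 1 to 4. Monocrotaline replicate 3 was the highest and replicate 4 the lowest of all 8. The probe was above background on all 8 arrays, but its signal was only 3.09 to 10.8 times the lowest signal counted as above background on the same array. Between the groups the log2 fold change was -0.04 ± 0.37 (SE, limma adjusted p = 0.978), with a 95% interval from -0.89 to 0.81. Monocrotaline replicate 3 also had the highest neutrophil marker mean, 1.98 above the saline mean against -0.35 to 0.41 on the other 3 monocrotaline arrays. It was also the highest in erythroid markers (2.85 against -0.28 to 0.71). In airway markers it was the highest at 2.80, with monocrotaline replicate 1 close to it at 2.61. Over the 8 arrays Nos2 correlated with the neutrophil score at r = 0.543 (two-sided exact permutation test, p = 0.168, rho = 0.214 with exact p = 0.619) and at r = -0.151 (exact p = 0.765) without saline replicate 4 and monocrotaline replicate 3. Leaving out any 1 array gave r from -0.212 to 0.715, so its sign depends on the arrays entered. With the erythroid score r was 0.611 (exact p = 0.120, rho = 0.214 with exact p = 0.619), and 0.412 (exact p = 0.414) without saline replicate 2 and monocrotaline replicate 3. With the macrophage and monocyte score r was -0.113 (exact p = 0.800, rho = -0.214 with exact p = 0.619). Nos1, the neuronal synthase, was well above background on 0 of 8 arrays.

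Ddah1 and Ddah2 encode the enzymes that clear asymmetric dimethylarginine, the natural inhibitor of the synthases. The brighter Ddah1 probe gave 2.36, 2.89, 3.08 and 2.67 on the saline arrays and 2.35, 2.58, 2.71 and 2.31 on the monocrotaline arrays. The dimmer Ddah1 probe gave -3.50, -3.15, -3.31 and -3.58 on saline and -3.62, -3.81, -3.38 and -3.58 on monocrotaline arrays. Both probes carry the same transcript accession, and both lay slightly lower after monocrotaline with overlapping groups. Their log2 fold changes were -0.26 ± 0.18 and -0.22 ± 0.15 (SE, n = 4 per group, limma adjusted p = 0.556 and 0.550). The intervals, from -0.68 to 0.15 and from -0.55 to 0.12, allow a loss of up to 1.60-fold and 1.47-fold. Ddah2 gave 2.97, 2.63, 3.24 and 3.27 on saline and 3.19, 3.36, 2.58 and 2.67 on monocrotaline arrays. Monocrotaline replicates 3 and 4 lay near the lowest saline array and replicates 1 and 2 among the highest. Its log2 fold change was -0.08 ± 0.23 (SE, limma adjusted p = 0.913).

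Gch1, which makes the first intermediate of tetrahydrobiopterin and sets its supply, had the narrowest saline group of the members. Its values were 0.43, 0.30, 0.17 and 0.25 on the saline arrays and 0.65, 0.0003, 0.37 and 0.63 on the monocrotaline arrays. Monocrotaline replicates 1 and 4 were above every saline array and replicate 2 below every one. Its log2 fold change was 0.13 ± 0.17 (SE, limma adjusted p = 0.778), with a 95% interval from -0.25 to 0.51. Ass1, argininosuccinate synthase, which rebuilds arginine from citrulline, gave -1.97, -2.18, -1.94 and -1.71 on saline and -1.24, -2.39, -1.89 and -1.97 on monocrotaline arrays. Its log2 fold change was 0.08 ± 0.24 (SE, limma adjusted p = 0.914), with monocrotaline replicate 1 the highest and replicate 2 the lowest of all arrays.

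**Figure D2:**
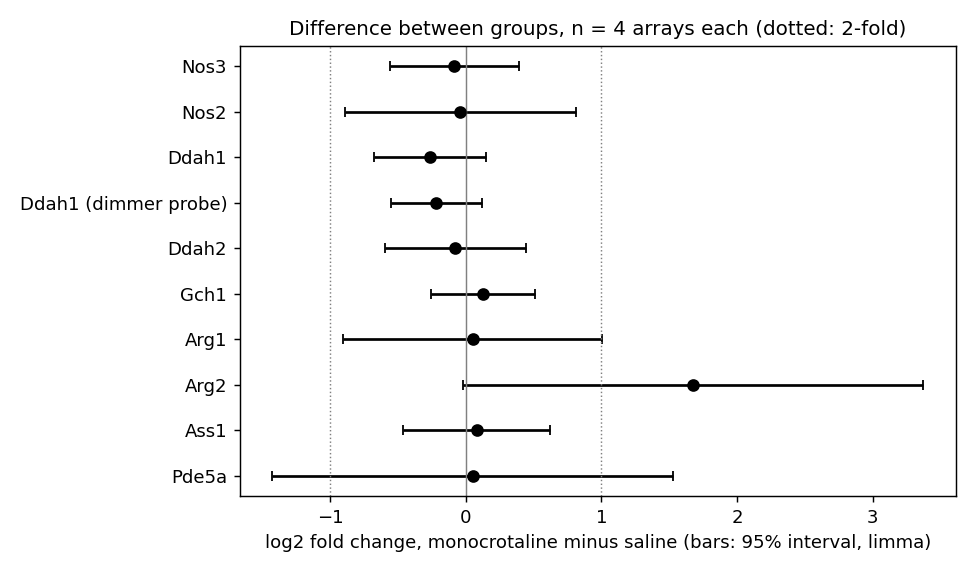
Log2 fold change of each member probe, monocrotaline minus saline, with its 95% interval from limma (n = 4 arrays per group) and dotted lines at a 2-fold change. Every interval includes 0, and those of Arg2 (from -0.02 to 3.37) and Pde5a (from -1.43 to 1.53) are the widest.

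Arg2, the mitochondrial arginase, had the largest difference among the members and did not pass the test. Its scaled log2 signals were -5.82, -6.42, -5.25 and -6.14 on saline replicates 1 to 4 and -4.05, -6.56, -3.66 and -2.64 on monocrotaline replicates 1 to 4. Monocrotaline replicates 1, 3 and 4 lay above every saline array, and replicate 2 lay below every one. The probe was above background on 3 of 4 saline arrays (not on replicate 2) and on 4 of 4 monocrotaline arrays, with processed signals from 12.2 to 351 units of brightness. The log2 fold change was 1.68 ± 0.74 (SE, n = 4 per group, limma adjusted p = 0.366, unadjusted p = 0.0520), or 3.20-fold, with a 95% interval from 0.988-fold to 10.3-fold. Of all probes tested 1.34% had a larger difference either way, and only 2.10% varied more within groups. The SD was 0.50 on the saline arrays and 1.66 on the monocrotaline arrays. Without monocrotaline replicate 2 the log2 fold change was 2.45 and passed (limma adjusted p = 0.0317), and over the other 20 alternatives run for it the log2 fold change was 0.78 or more and the call was absent. Normexp background correction started from the median spot and background signals instead of the processed signal. It was run with a chosen offset of 50 units added to every spot, and the parts of these changes were not separated. With normexp the log2 fold change of Arg2 was 0.78 under 75th percentile scaling and 0.94 under quantile normalization. An unadjusted limma p under 0.05 was found in 7 of all 21 alternatives, the called one among them.

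Arg1, the cytosolic arginase of liver and of alternatively activated macrophages, had close group means, 1.09 after monocrotaline and 1.04 after saline, and a wider range after monocrotaline. It gave 1.26, 1.21, 1.24 and 0.44 on the saline arrays and 1.68, -0.15, 1.10 and 1.73 on the monocrotaline arrays. Saline replicate 4 stood below the other 3 saline arrays, and monocrotaline replicate 2 was the lowest of all 8. The log2 fold change was 0.05 ± 0.42 (SE, limma adjusted p = 0.975), with a 95% interval from -0.91 to 1.01. The probe was printed as 10 spots whose log2 signals on 1 array had an SD of 0.04 to 0.06, against SDs between arrays of 0.40 in the saline and 0.87 in the monocrotaline group.

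Pde5a, the phosphodiesterase that degrades cyclic GMP and is abundant in vascular smooth muscle, had the widest spread in the saline group. It gave -2.48, -2.67, -0.09 and -2.46 on the saline arrays and -1.13, -1.30, -3.07 and -1.995 on the monocrotaline arrays. Saline replicate 3 was the highest of all 8, and the other 3 saline arrays lay between the lowest monocrotaline array, replicate 3, and the other 3. The log2 fold change was 0.05 ± 0.65 (SE, limma adjusted p = 0.984), with a 95% interval from a loss of 2.69-fold to a gain of 2.89-fold. Without saline replicate 3 it was 0.66 (limma adjusted p = 0.597).

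The spread of Arg1, Arg2, Gch1 and Pde5a over the 8 arrays was set beside markers of other cells that digested lung can hold. The correlations below take both groups together with no adjustment for treatment. A difference between the groups, and so between slide rows, therefore enters each of them and is not separated from spread within groups. For each array the markers of a list were averaged on the scaled log2 scale and the average of the saline group was subtracted, which gives a score. Macrophage and monocyte markers, of which 11 of 12 were tested (Cd68, Csf1r, C1qa and Lyz2 among them) and Marco was above background on only 1 array, scored 0.12, 0.16, 0.26 and -0.54 on the saline arrays. They scored 0.51, -0.93, 0.44 and 1.10 on the monocrotaline arrays. None of the 11 was at background on all arrays, and 0 were called. Their median log2 fold change was 0.23, with 8 above 0 and 3 below. Saline replicate 4 and monocrotaline replicate 2, the arrays lowest in Arg1, were the lowest in these markers too, and monocrotaline replicate 4 was the highest in the markers, in Arg1 and in Arg2.

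Over the 8 arrays Arg1 correlated with the macrophage and monocyte score at Pearson r = 0.943 (two-sided exact permutation test, p = 0.00124) and Spearman rho = 0.786 (exact p = 0.0279). Without monocrotaline replicates 2 and 4, the arrays farthest from the median score, r was 0.888 (exact permutation test over 6 arrays, p = 0.050). Leaving out any 1 array gave r from 0.895 to 0.957. Arg2 followed the same score at r = 0.851 (exact p = 0.00439) and rho = 0.905 (exact p = 0.00456), and at r = 0.715 (exact p = 0.0875) without those 2 arrays. Leaving out any 1 array gave r from 0.748 to 0.923 for Arg2. Gch1 followed it at r = 0.83 (exact p = 0.0125) and rho = 0.738 (exact p = 0.0458). For Gch1 r was 0.515 (exact p = 0.282) without monocrotaline replicates 2 and 4, and 0.70 to 0.908 with any 1 array left out. Arg2 also ran opposite to the endothelial score, at r = -0.824 (exact p = 0.0114) and rho = -0.690 (exact p = 0.0694). For this pair r was -0.462 (exact p = 0.346) without monocrotaline replicates 3 and 4, and -0.884 to -0.73 with any 1 array left out. Ddah2 ran with the endothelial score at r = 0.745 (exact p = 0.0366) and rho = 0.762 (exact p = 0.0368). For Ddah2 r was 0.407 (exact p = 0.417) without the same 2 arrays, and 0.649 to 0.841 with any 1 array left out. Taking out the 2 arrays farthest out in a score narrows that score and leaves 6 arrays. A weaker relation there therefore cannot show whether it rests on them.

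Smooth muscle and pericyte markers, 10 of 10 tested (Acta2, Myh11 and Pdgfrb among them), scored 0.27, -1.28, 1.17 and -0.16 on the saline arrays and 0.87, 1.34, -0.07 and 0.36 on the monocrotaline arrays. None of the 10 was at background on all arrays, and 0 were called, with a median log2 fold change of 0.62. The highest Pde5a value, on saline replicate 3, fell on the saline array with the highest score, and monocrotaline replicates 1 and 2 were high in both. Pde5a correlated with this score at r = 0.777 (two-sided exact permutation test over 8 arrays, p = 0.0227) and rho = 0.810 (exact p = 0.0218). Without saline replicate 2 and monocrotaline replicate 2, the arrays farthest from the median score, r was 0.951 (exact p = 0.00833).

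Nos3 ran opposite to the macrophage and monocyte score by rank, at rho = -0.762 (exact p = 0.0368), with r = -0.605 (exact p = 0.110) and r = -0.604 (exact p = 0.224) without monocrotaline replicates 2 and 4. With the endothelial score Nos3 had r = 0.47 (exact p = 0.24) and rho = 0.476 (exact p = 0.243). Leaving out any 1 array gave r from 0.187 to 0.968 there. For Nos3 r was -0.4 (exact p = 0.327) with the fibroblast score and -0.155 (exact p = 0.721) with the airway score. Gch1 ran opposite to the endothelial score by rank, at rho = -0.738 (exact p = 0.0458), with r = -0.601 (exact p = 0.113) and r = -0.507 (exact p = 0.292) without monocrotaline replicates 3 and 4.

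In all 90 relations were computed, between 10 member probes and 9 marker lists. An unadjusted Pearson p under 0.05 was found in 6, and an unadjusted Spearman p under 0.05 in 7. Of these 7, 2 had no such Pearson p: Nos3 with the macrophage and monocyte score and Gch1 with the endothelial score. After Benjamini-Hochberg adjustment over the 90 none passed by Pearson or by Spearman. The adjusted Pearson p, from exact permutation, was 0.112 for Arg1, 0.198 for Arg2 and 0.282 for Gch1 with macrophage markers, 0.282 for Arg2 and 0.549 for Ddah2 with endothelial markers, and 0.408 for Pde5a with smooth muscle markers. The adjusted Spearman p, also from exact permutation, was 0.411 to 0.623 over those 6 and 0.589 for the 2 found by rank alone. Each group alone, which is also each slide row alone, holds 4 arrays, too few for a correlation. T cell and cycling cell markers were left out of these relations because the groups lay apart in them, at scores of 1.09 to 2.02 and of 1.35 to 2.39 on the monocrotaline arrays.

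**Figure D3:**
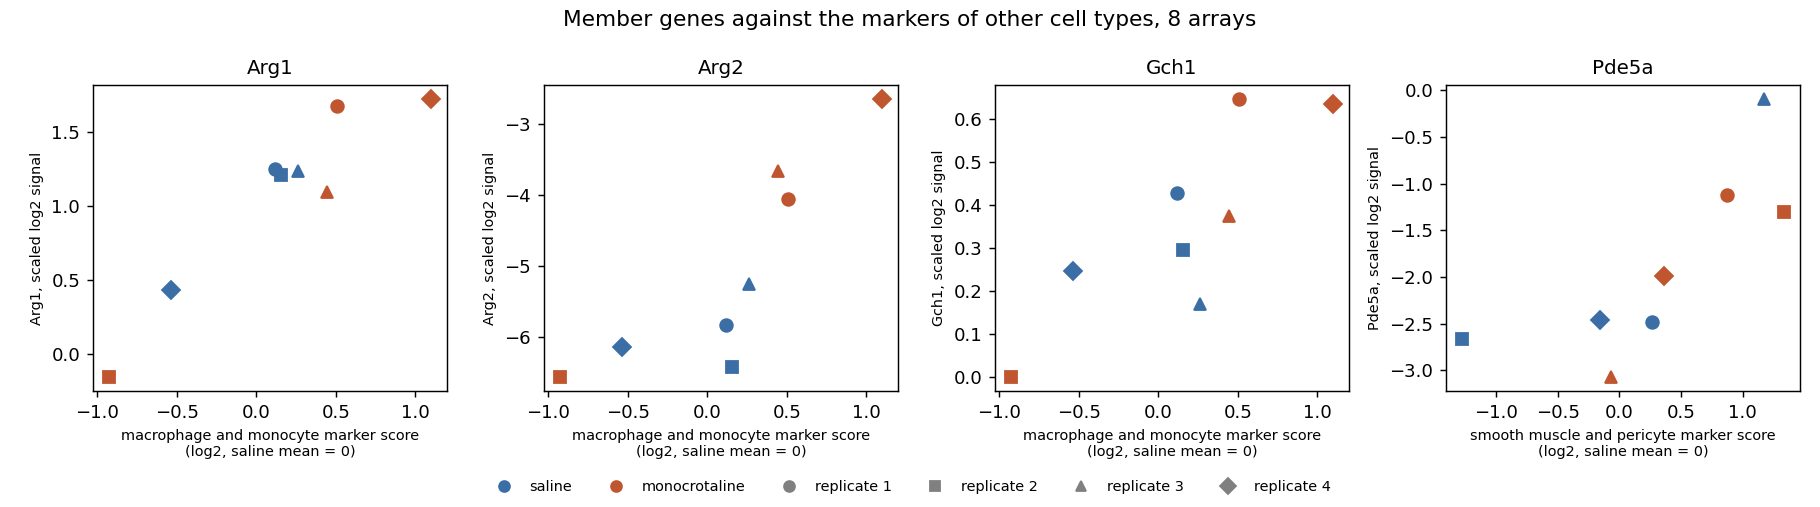
Scaled log2 signal of Arg1, Arg2 and Gch1 against the macrophage and monocyte marker score, and of Pde5a against the smooth muscle and pericyte marker score, on the 8 arrays (score in log2 units with the saline mean at 0, colour for group, shape for replicate number). Monocrotaline replicate 2 is lowest in Arg1, Arg2 and Gch1 and in the macrophage score, and saline replicate 3 is highest in Pde5a.

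By the mean absolute difference over 8 arrays, after centring each probe on its own mean, the named genes whose pattern lay nearest to that of Nos3 were Trpv4, a calcium channel of endothelium and epithelium (0.07 log2 units), Nudt4, a diphosphoinositol phosphohydrolase (0.08), Htra1, a secreted serine protease (0.08), Lhx6, a LIM homeobox transcription factor (0.09), and Nelfa, of the complex that pauses RNA polymerase (0.11). The median over the 12384 probes compared was 0.30. Their log2 fold changes, from -0.08 to 0.05, were held near that of Nos3 by this choice.

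The other genes of the pathway were read from 9 lists holding 101 genes. Of these 95 had a probe, and 83 passed the filter, each taken at its brightest probe. None was called, 0 higher and 0 lower, where the test over all probes called 1.37% higher and 0.0575% lower of 19137 entries, each a gene or, for probes with no matched gene, a transcript accession, taken at its brightest probe. At an unadjusted limma p under 0.05, 3 (3.61%) were higher and 7 (8.43%) lower, beside 6.71% and 7.21% of those entries. The median log2 fold change of the 83 was -0.04, beside -0.03 over all entries. A log2 fold change of 1 or more either way was found in 8 (9.64%), beside 5.35% of all entries. The lowest adjusted p was 0.0696.

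Among genes of arginine supply and turnover 0 of 13 were called, with a median log2 fold change of -0.16. The largest difference was that of Otc, ornithine transcarbamylase, at -1.07 ± 0.31 (SE, n = 4 per group, limma adjusted p = 0.181). Slc7a2, another cationic amino acid carrier, was at -0.84 ± 0.55, with monocrotaline replicate 2 at -4.63 below the other 7 arrays (-2.70 to -1.68). Asl, argininosuccinate lyase, the enzyme after Ass1, was at 0.05 ± 0.13. Of 7 genes of tetrahydrobiopterin synthesis and recycling 0 were called, with a median of 0.09. Gchfr, the feedback regulator of the Gch1 enzyme, was at -0.49 ± 0.32 (limma adjusted p = 0.539).

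Of 21 synthase partners, activators and inhibitors 0 were called, with a median of -0.04. Cav1, caveolin-1, which holds the endothelial synthase inactive in caveolae, was at -0.31 ± 0.18 (limma adjusted p = 0.482), and Sod3, an extracellular superoxide dismutase that spares nitric oxide, at 0.75 ± 0.55. All 5 transcriptional inducers of Nos3 that were listed had log2 fold changes below 0 and 0 were called, with a median of -0.27. Gata2 was at -1.02 ± 0.28 (SE, limma adjusted p = 0.150) and Klf2, the flow-responsive factor of endothelium, at -0.47 ± 0.19 (limma adjusted p = 0.333). Klf2 read 1.91, 2.06, 2.38 and 2.49 on the saline arrays and 1.36, 1.84, 1.99 and 1.77 on the monocrotaline arrays, so the groups overlapped. Of 6 methylarginine genes and 8 genes of nitric oxide and nitrosothiol disposal 0 were called, with medians of 0.02 and -0.05. The largest differences there were those of Carm1, an arginine methyltransferase, at 0.36 ± 0.16, and of Ngb, neuroglobin, at -0.75 ± 0.45.

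Of 9 genes of soluble guanylate cyclase and its targets 0 were called, with a median of 0.10. Gucy1b1, the beta 1 subunit of the cyclase, was at 1.30 ± 0.52 (SE, limma adjusted p = 0.327), from -3.24, -3.80, -2.29 and -3.17 on the saline arrays to -0.77, -1.39, -3.20 and -1.92 on the monocrotaline arrays. Monocrotaline replicate 3 lay among the saline arrays and the other 3 above them, and replicate 3 had the lowest smooth muscle score of that group, whose part in the value was not tested. Gucy1a1, the alpha 1 subunit, was at 0.21 ± 0.24. Prkg1, the main cyclic GMP-dependent kinase of smooth muscle, was above background on 1 saline and 2 monocrotaline arrays and was not tested. Of 4 natriuretic peptide receptor and processing genes 0 were called, with a median of -0.39. Npr3, the clearance receptor, was at -1.09 ± 0.35 (limma adjusted p = 0.223). Of 10 other cyclic GMP phosphodiesterases 0 were called, with a median of -0.09.

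In 4 of the 83 genes (4.82%) the groups did not overlap, beside 4.56% of all entries upward and 3.99% downward. These 4 are named because of their values. Pde3a, a phosphodiesterase inhibited by cyclic GMP, was at -0.90 ± 0.25 (SE, limma adjusted p = 0.151). Nos1ap, an adaptor of the neuronal synthase, was at -1.09 ± 0.23 (limma adjusted p = 0.0696) and was above background on 4 saline and 3 monocrotaline arrays. Pln, phospholamban, a muscle regulator of calcium uptake, was at 1.17 ± 0.32 (limma adjusted p = 0.149), and Sod1, the cytosolic superoxide dismutase, at -0.20 ± 0.11 (limma adjusted p = 0.469).

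**Figure D4:**
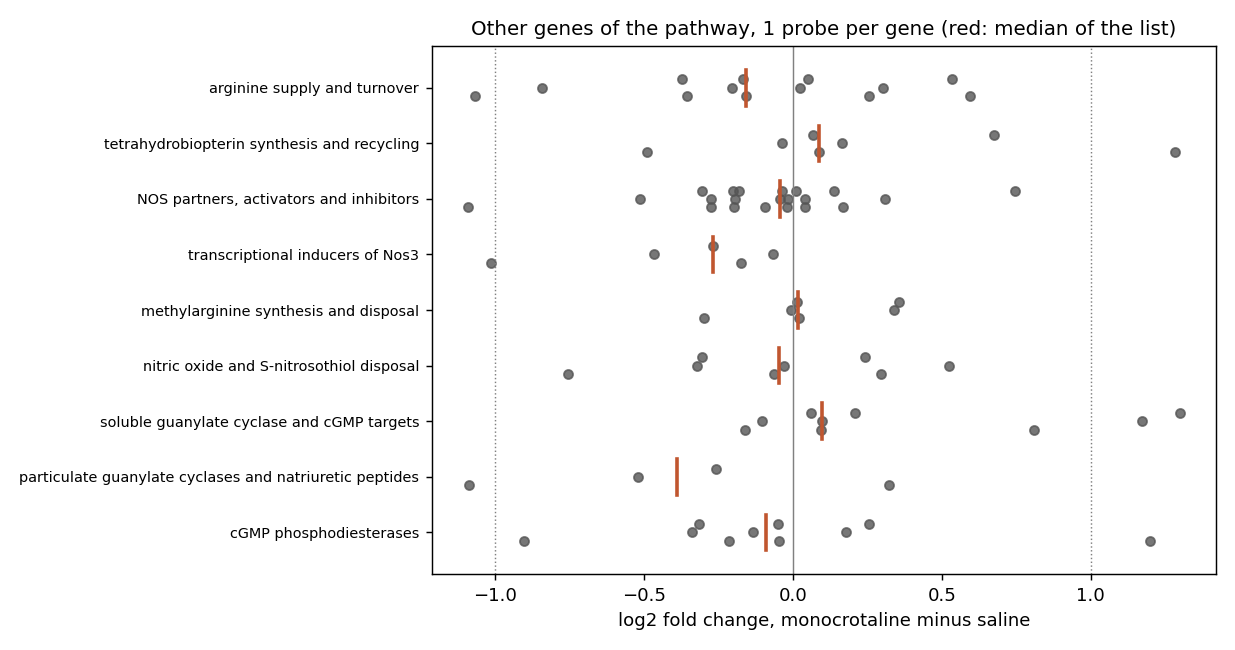
Log2 fold change (monocrotaline minus saline) of the 83 other pathway genes tested, 1 point per gene at its brightest probe, in 9 lists with the median of each list in red and dotted lines at a 2-fold change. None passed the test, and the list medians lie between -0.39 and 0.10.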

How the data were processed

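Total RNA of 8 samples, 4 per group, was amplified from 10 ng and marked with Cy3, per the labels' protocols. Agilent Feature Extraction 10.7.3.1 had subtracted the background from each spot, per the file headers, and the deposited processed signal is an intensity. Flags for outliers and background, deposited beside it, are values of other kinds (yes or no). The authors' deposited log2 values had been logged a second time: undoing that gave the quantile-normalized log2 signals over 62976 features (median absolute difference 9.89e-10). It served as an alternative, and limma 3.6.9 is named without a role in the submitters' processing notes.

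Spots of one probe were averaged after 4259 control spots and outlier spots were left out, which removed 17 of 30367 probes. Log2 signals were scaled to the 75th percentile of each array. Probes had to be well above background, in a share of at least 0.5 of their spots, on at least 4 of 8 arrays. Names came from RefSeq accessions of a newer assembly than the array's, so no coordinates are given. Each probe was tested with limma 3.58.1 in R 4.3.3, two-sided, and the steps were tested on simulated data. The members, lists and relations were chosen with earlier results of these data known. Named pathway genes were, by rule, those called or else the largest difference of a list among probes above background on all 8 arrays, and 9 genes picked by role, of which 1 is not reported here. The 22 alternatives changed scaling, background, filter, probe choice, variance model, replicate block or the arrays entered. Nothing in the labels says that the samples came from separate rats, so p-values measure the spread between these samples.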

Additional observations from a re-analysis of the deposited data

Results flagged for a closer look

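In 2 of 20 groups of 4 arrays (10 member probes in 2 treatment groups) 1 array stood farther from the others than chance gives in about 1 of 20 groups. Arg1 on saline replicate 4 was the lowest of its group, with a gap to the next array of 0.949 of the group's range (0.44 against 1.21 to 1.26). The macrophage and monocyte score of that array, -0.54, was the lowest of the saline arrays (0.12 to 0.26 on the others). Without it the log2 fold change of Arg1 was -0.15.

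Pde5a on saline replicate 3 was the highest of its group, with a gap of 0.919 of the range (-0.09 against -2.67 to -2.46). The same array had the highest smooth muscle and pericyte score (1.17) and alveolar epithelial score (1.62) of the saline arrays. It was also the highest of them in fibroblast (1.67), T cell (0.37) and macrophage and monocyte (0.26) scores. Saline replicate 1 was the highest in neutrophil, airway, erythroid and platelet scores, and saline replicate 4 in endothelial and cycling cell scores. Without it the log2 fold change of Pde5a was 0.66.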

How the results depend on the processing

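No member probe was called under any of the 14 alternatives that keep all arrays or leave out more than 1. With 1 array left out the number was 0 to 1, the 1 being Arg2 without monocrotaline replicate 2. The 294 higher probes became 62 and the 14 lower ones 1 without the 2 monocrotaline arrays high in airway markers, an alternative added after seeing the data. The lower count was 23 and 24 with normexp (75th percentile and quantile scaling), 9 with no filter and 59 with array weights. Leaving out 1 array gave 14 to 316 higher and 0 to 108 lower probes. With a replicate block 0 were higher and 0 lower. Same-numbered arrays did not deviate together (r of -0.332 to -0.0138 over probes). Such values cannot exclude that same-numbered samples were handled together, so whether the numbers pair the samples is not known.

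Signs turned only for uncalled values. Pde5a was at -0.0093 with quantile normalization, -0.0095 with normexp and 75th percentile scaling and -0.037 in the deposited table, and Ddah2 at 0.014 with normexp and quantile scaling. Arg1 was at -0.083 with array weights, and Arg1 and Ass1 at -0.25 and -0.23 without the 2 arrays. With 1 array left out the log2 fold change was -0.27 to 0.033 for Nos3, -0.39 to 0.21 for Nos2, -0.21 to 0.045 for Ddah2, -0.16 to 0.46 for Arg1, -0.13 to 0.25 for Ass1 and -0.20 to 0.66 for Pde5a. The cause was not tested. Under 5 other scalings, also chosen after seeing the data, all 13 endothelial markers and all 5 inducers of Nos3 stayed below 0 and no pathway gene was called. Arg2 and Nos2 lie near background, where signal limits what can be seen.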
